A study of Mus musculus with 23 samples.

Results

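Hippocampal microglia of APP/PS1 mice were compared with those of WT littermates within the Control arm of the study, in which Slc11a2 (DMT1, an iron importer) had not been knocked down. The comparison takes 12 of the 23 samples: Control APP/PS1 0005, 0007, 0011, 0013, 0016 and 0017 against Control WT 0006, 0008, 0009, 0012, 0014 and 0015, named here by group and sample number. Control APP/PS1 0010 was left out because the study removed it as an outlier on the first principal component. Apart from that sample, the choice rests on labels and on no measured value. APP/PS1 mice were hemizygous for a transgene array (line 85) that includes APPswe, a chimeric mouse/human APP with the Swedish mutation, driven by the mouse prion promoter, and they deposit amyloid-β. All 12 were female mice on a mixed 129S;C57BL/6J background, carried Slc11a2 fl/fl and Cx3cr1-CreERT2+/-, and received corn oil by gavage on 5 days at 5 to 6 months of age, where knockdown mice received tamoxifen. The "WT" and "Control" mice therefore also held the floxed alleles and the Cre driver, which takes the place of 1 copy of Cx3cr1. CD11b+ cells were taken with magnetic beads from both hippocampi at 15 to 18 months of age by the sample labels (another source has 17 months as the upper bound), after a Percoll gradient, and poly(A) RNA was sequenced. A bulk preparation of this kind gives the mean over all cells held by the beads, so fewer cells of a type and less RNA per cell cannot be told apart.

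Microglia are the resident macrophages of the brain. In healthy tissue they keep a surveying state marked by purinergic receptors, Tmem119 and TGF-beta dependent genes. Around amyloid plaques they take up lipid, debris and aggregated peptide, and a known programme, called disease-associated microglia (DAM), follows the lipid-sensing receptor Trem2. The material taken up is broken down in lysosomes, whose enzymes work in the acid set by the vacuolar ATPase, and the cholesterol freed there is esterified, stored or exported.

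The 12 samples held 31128643 to 54872491 counted read pairs, with the Control APP/PS1 samples (39227315 or more) reaching deeper than the Control WT samples (44311461 or fewer). From here on, WT and APP/PS1 stand for these Control groups. Levels are given in CPM, a gene's count relative to all counts of the sample after TMM scaling. They are not divided by gene length, so they are compared between samples and not between genes. Changes are given as log2FC, the fitted log2 fold change of APP/PS1 against WT, with its standard error after the ± sign. Itgam, the gene of CD11b, had 267 to 333 CPM (median 318) in WT and 111 to 246 CPM (median 209.7) in APP/PS1 (log2FC -0.65 ± 0.25, adjusted p = 0.104), so it missed the threshold although the ranges were separate. Slc11a2 was present in both groups, at 29.9 to 43.7 CPM (median 33.5) in WT and 39.99 to 48.2 CPM (median 41.5) in APP/PS1 (log2FC 0.30 ± 0.14, adjusted p = 0.175). App (log2FC 0.11 ± 0.22, adjusted p = 0.843) missed the threshold in the counts against mouse gene models. Prnp, whose promoter drives the transgenes, had 1.74 to 12.3 CPM (median 7.86) in WT and 14.1 to 24.96 CPM (median 19.7) in APP/PS1 (log2FC 1.30 ± 0.32, adjusted p = 0.008), and every APP/PS1 sample was above every WT sample. The part that transgene transcripts have in this value was not tested.

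Markers of other cells were summed in each preparation. The 20 choroid plexus markers summed to 5.57 to 2160 CPM in WT and 2.53 to 8.19 CPM in APP/PS1, and the WT sums came from 0012 (2160 CPM) and 0015 (1128 CPM), with no more than 11.9 CPM in the other four. The 12 markers of border-associated macrophages summed to 286 to 578 CPM in WT and 119 to 254 CPM in APP/PS1, with no overlap between groups. Endothelial markers summed to 196 to 418 CPM in WT and 118 to 175 CPM in APP/PS1, again with no overlap, and oligodendrocyte markers to 749.5 to 2809 CPM in WT and 376 to 1026 CPM in APP/PS1, with overlap. The sums of the 12 microglia and myeloid markers were 29070 to 32941 CPM in WT and 24740 to 28447 CPM in APP/PS1. Monocyte markers summed to 25.3 to 90.3 CPM in WT and 10.3 to 30.9 CPM in APP/PS1 and those of neutrophils to 89.9 to 335 CPM in WT and 21.3 to 102 CPM in APP/PS1, both with overlap. B cell markers, at 258 to 381 CPM in WT and 319 to 403 CPM in APP/PS1, also overlapped. The part of these cells in the results was not tested, but counts over all genes and calls of named genes that changed without 0012 and 0015 are given with and without these samples, and so are counts of list members where they changed by over 1.5 times.

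In edgeR's quasi-likelihood test with Benjamini-Hochberg adjustment over 18759 genes, 1124 genes (5.99% of those tested) were higher in APP/PS1 at an adjusted p below 0.05 and 841 (4.48%) were lower. These calls, "higher" and "lower", are used below for every gene and list. Counts on the higher genes made up 17.3 to 20.5% of all counts in APP/PS1 and 11.03 to 12.4% in WT. The lower genes held 9.35 to 10.8% in APP/PS1 and 14.9 to 17.9% in WT. Both sets were called in these same samples, so the direction of these differences follows from the choice and only their size is described. The groups did not overlap for 804 of the higher and 444 of the lower genes. Over all 18759 genes tested, called or not, every APP/PS1 sample was above every WT sample for 1000 and below for 568. A log2 fold change above 2 was found for 257 higher genes, and one below -2 for 110 lower genes. Of those 110, 46 had more than 80% of their summed WT level in the 2 samples with choroid plexus transcripts, against 6 of the 1124 higher genes. Without these samples 785 genes were higher and 497 lower, of which 732 and 487 were also called with them. With scaling to total counts alone, in place of TMM, 921 genes were higher and 1077 lower, so that the larger side turned, as it did with upper-quartile scaling (939 higher and 1000 lower) and in DESeq2 (1236 and 1304). With total counts alone the median log2 fold change of all genes went from -0.02 to -0.11. The main test takes its estimate of the spread from all 4 genotype and knockdown groups. With the 12 samples alone, where 17400 genes passed the filter, 1974 genes were higher and 1267 lower.

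**Figure D1:**
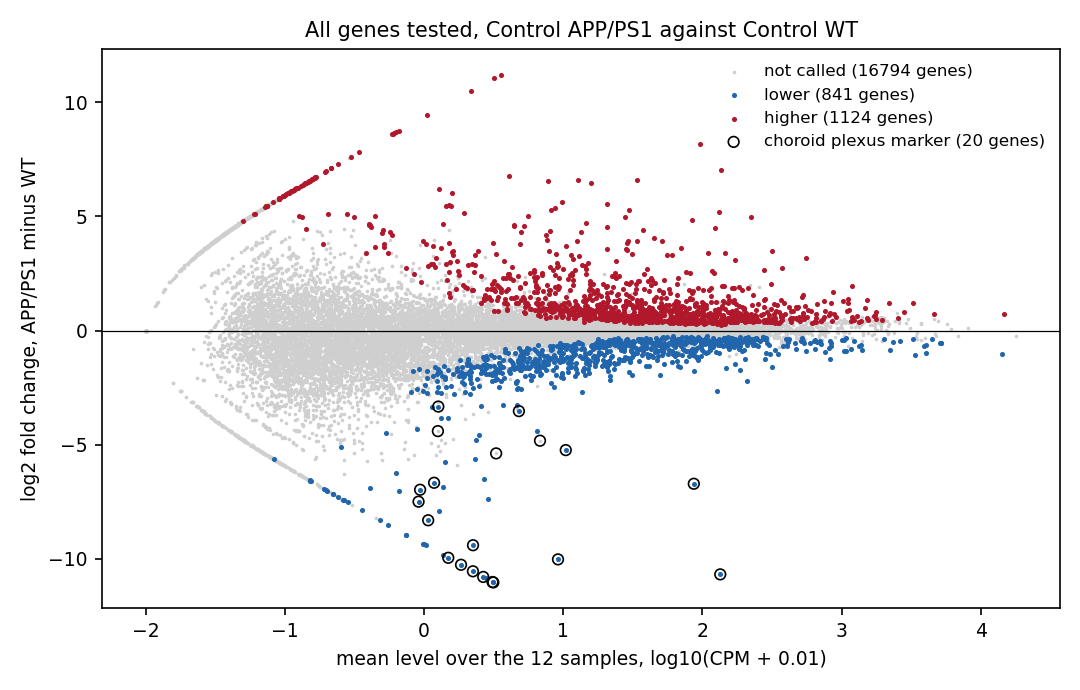
Log2 fold change of each of the 18759 genes tested (APP/PS1 minus WT, 6 samples each) against its mean level over the 12 samples on a log10 scale of CPM. Red points are the 1124 higher genes, blue points the 841 lower genes and grey points the rest, and black rings mark the 20 choroid plexus markers, many of which lie below -5.

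Gene lists for cell functions were then read by how many members were called, beside the 5.99% and 4.48% of all genes. Medians of lists are given beside the -0.02 of all genes, and those within 0.1 of 0 are read as no direction, since scaling or 1 sample could turn their sign. Lysosomal, sterol, glycolytic, translation and DAM lists lay mainly on the higher side. Homeostatic, purinergic, TGF-beta and complement lists lay mainly on the lower side. Without WT 0012 and 0015, however, the complement list had 2 higher and 2 lower members and the TGF-beta list 1 and 3. Several lists that serve every cell had few or no calls: splicing factors (1 higher and 0 lower of 67), chromatin remodellers and histone modifiers (2 and 2 of 101), nuclear pore genes (0 and 0 of 25) and small nucleolar RNA host genes (0 and 0 of 18). With the 12 samples alone these became 6 and 2, 5 and 3, 2 and 1, and 3 and 0. The nuclear pore and small nucleolar RNA host lists are too short for 0 calls to set them apart from the shares of all genes. In the counts below, brackets after a list hold the numbers of higher and lower members without WT 0012 and 0015, with the 12 samples alone or, where the removal of those 2 made no such difference, without a single named sample, wherever a count of 3 or more differed by over 1.5 times. Medians of at least 0.1 in size are treated likewise. Values under 3 other scalings (DESeq2 size factors, upper quartile, total counts) are added by the same limits.

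**Figure D2:**
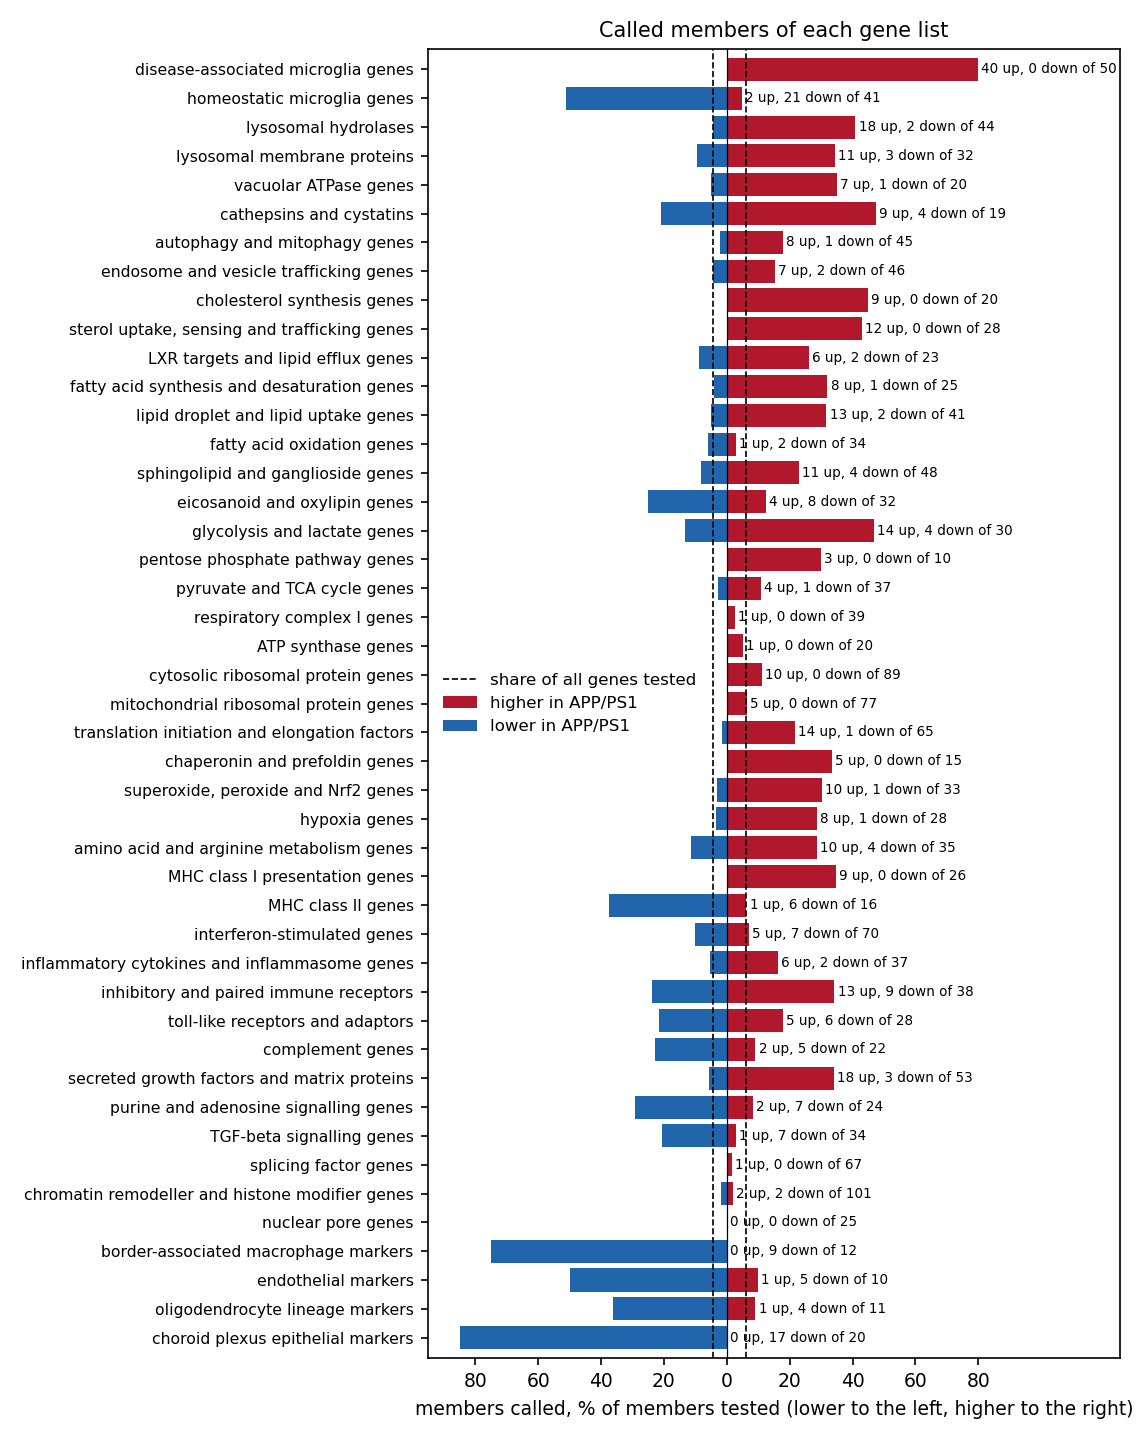
Share of the tested members of each gene list that was called higher (red, to the right) or lower (blue, to the left) in APP/PS1 against WT, 6 samples each, with the counts printed beside the bars. Dashed lines mark the shares of all genes tested, 5.99% higher and 4.48% lower, and the DAM, lysosomal and sterol lists lie far to the right of them.

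In the DAM list, 40 of 50 members were higher and 0 lower, with a median log2FC of 1.77, so 80% of the list was higher. The list, like the others, was written with earlier results of these data known, so this share is a description only. The summed level of the list was 21405 ± 2897 CPM in WT and 44319 ± 4173 CPM in APP/PS1 (SD, n = 6 each). Among its members, Ank, which exports pyrophosphate and citrate, had 76.8 to 163 CPM (median 97.2) in WT and 737 to 1296 CPM (median 975) in APP/PS1 (log2FC 3.20 ± 0.20, adjusted p = 3.15e-10). Igf1, a growth factor, had 7.21 to 17.9 CPM (median 8.44) in WT and 117 to 309.7 CPM (median 268) in APP/PS1 (log2FC 4.50 ± 0.30, adjusted p = 8.08e-10). In both genes the lowest APP/PS1 sample stood far above the highest WT sample. Gpnmb, a glycoprotein of stressed lysosomes, had 0 to 10.1 CPM (median 0.369) in WT and 40.8 to 527 CPM (median 244) in APP/PS1 (log2FC 7.01 ± 1.19, adjusted p = 0.00024). Cst7, an inhibitor of cysteine cathepsins, had 4.18 to 52.8 CPM (median 6.66) in WT and 267 to 620.4 CPM (median 401) in APP/PS1 (log2FC 4.96 ± 0.54, adjusted p = 8e-07). The highest WT value of Cst7 was that of 0014, which also had the highest WT sum of the whole list (26845 CPM, against 22024 CPM or less in the other five), and APP/PS1 began at 40425 CPM.

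The 10 genes with the largest fold changes were taken among called genes with a mean of at least 5 CPM and no overlap. Beyond Gpnmb they were Mamdc2, Baiap2l2, Lgi2, Trpm1, Dkk2, Minar1, Fabp3, Atp6v0d2 and Gpr31c. The WT medians of these 10 genes were at most 0.836 CPM (that of Fabp3), so their fold changes carry large errors. Baiap2l2, which bends membranes at actin-rich sites, had 0 to 2.31 CPM (median 0.294) in WT and 54.4 to 88.6 CPM (median 59.3) in APP/PS1 (log2FC 6.60 ± 0.67, adjusted p = 2.08e-07). Lgi2, a secreted leucine-rich repeat protein, had 0 to 0.56 CPM (median 0.284) in WT and 6.78 to 54.2 CPM (median 20.2) in APP/PS1 (log2FC 6.60 ± 0.89, adjusted p = 1.42e-05). Trpm1, a cation channel best known from retina and pigment cells, had 0 to 0.644 CPM (median 0.0792) in WT and 7.76 to 33.2 CPM (median 13.1) in APP/PS1 (log2FC 6.56 ± 0.70, adjusted p = 4.98e-07). These genes were close to silent in WT preparations. Dkk2, a secreted modulator of Wnt signalling, had 0 to 0.734 CPM (median 0.338) in WT and 5.63 to 57.3 CPM (median 30.8) in APP/PS1 (log2FC 6.46 ± 0.84, adjusted p = 9.31e-06). Minar1, a Notch-associated membrane protein (log2FC 5.61 ± 0.96, adjusted p = 0.000264), and Gpr31c, a G protein-coupled receptor (log2FC 5.27 ± 1.02, adjusted p = 0.00101), rose as well.

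Gains and losses of mean CPM were ranked among called genes, and such a ranking favours genes with many counts. The 10 largest gains were in genes that already had many counts in WT. Eef1a1, which brings aminoacyl-tRNA to the ribosome, had means of 11019 CPM in WT and 18295 CPM in APP/PS1 (log2FC 0.73 ± 0.09, adjusted p = 6.7e-06). Ctsb, a lysosomal cysteine protease, had means of 1954 CPM in WT and 4529 CPM in APP/PS1 (log2FC 1.21 ± 0.17, adjusted p = 1.81e-05). Ctsd, an aspartic protease, had means of 3496 CPM in WT and 5715 CPM in APP/PS1 (log2FC 0.71 ± 0.13, adjusted p = 0.000542). Both proteases were higher in every APP/PS1 sample than in any WT sample. Ctss, a further lysosomal cysteine protease, was among the 10 largest losses, with 5140 to 7328 CPM (median 6041) in WT and 3581 to 4806 CPM (median 4005) in APP/PS1 (log2FC -0.57 ± 0.18, adjusted p = 0.0435; 0.112 without WT 0012 and 0015), and it was called in 2 of 12 repeats with a single sample removed. The tetraspanin Cd9 had means of 1328 CPM in WT and 3074 CPM in APP/PS1 (log2FC 1.21 ± 0.16, adjusted p = 1.54e-05). Fth1, the ferritin heavy chain, had means of 2051 CPM in WT and 3559 CPM in APP/PS1 (log2FC 0.79 ± 0.16, adjusted p = 0.00203), and Eef2, which moves the ribosome along, had means of 2061 CPM in WT and 3033 CPM in APP/PS1 (log2FC 0.56 ± 0.13, adjusted p = 0.00557). Cd63, Ftl1, Serpine2 and Ctsz, described with their lists, completed the 10. On the other side, Cst3, the secreted cystatin C, had the largest loss, with 15649 to 23661 CPM (median 18631) in WT and 7830 to 11471 CPM (median 9389) in APP/PS1 (log2FC -1.04 ± 0.11, adjusted p = 7.33e-07). Selenop, a selenium carrier protein, fell, with means of 6159 CPM in WT and 4262 CPM in APP/PS1 (log2FC -0.53 ± 0.11, adjusted p = 0.00197), with overlap. Cmtm6, which protects surface receptors from degradation, fell, with means of 2894 CPM in WT and 1588 CPM in APP/PS1 (log2FC -0.87 ± 0.13, adjusted p = 4.26e-05). Sparc, a matricellular protein, fell, with means of 4916 CPM in WT and 3136 CPM in APP/PS1 (log2FC -0.65 ± 0.12, adjusted p = 0.000792), and Serinc3, a multi-pass membrane protein, had means of 6203 CPM in WT and 4216 CPM in APP/PS1 (log2FC -0.56 ± 0.09, adjusted p = 0.000153).

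**Figure D3:**
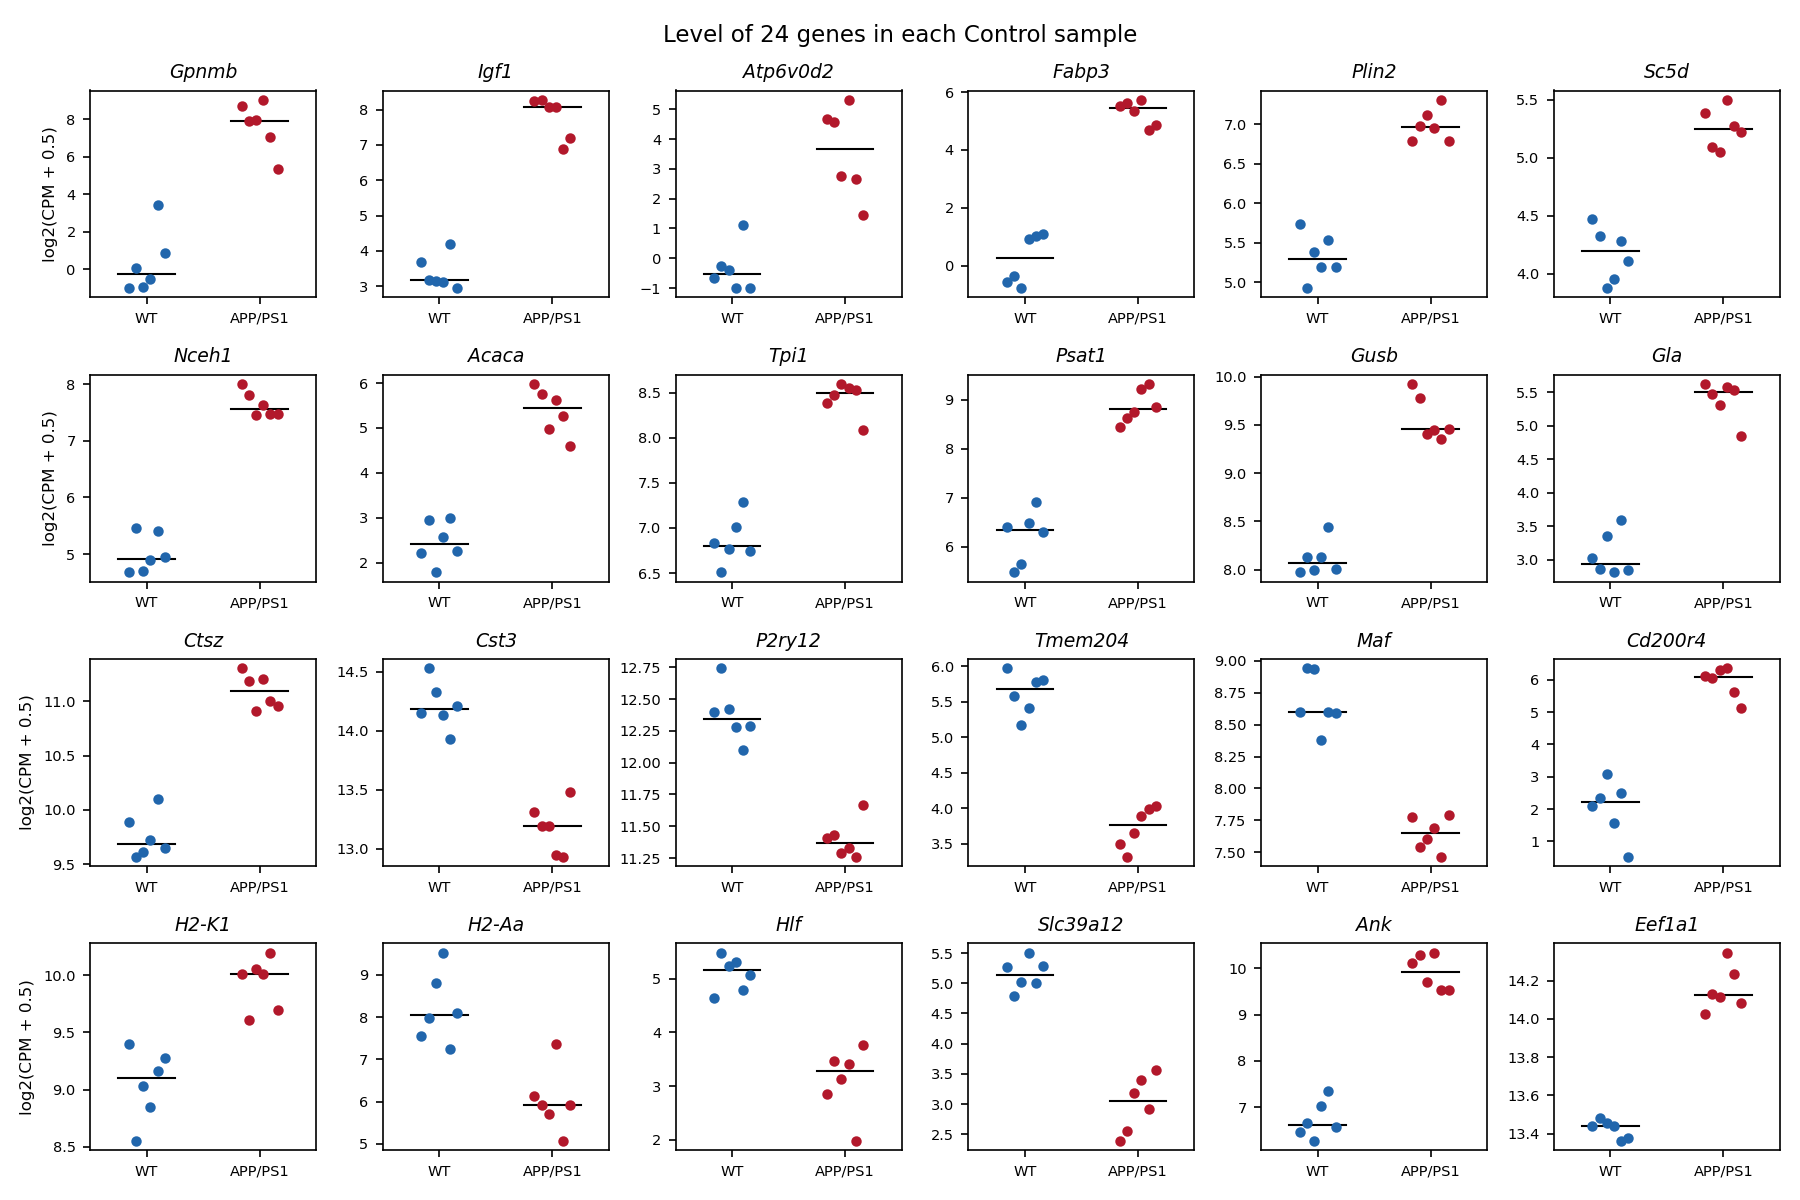
Level of 24 genes as log2(CPM + 0.5) in the 6 WT samples (blue) and the 6 APP/PS1 samples (red), with a line at each median. The groups are separate for every gene drawn except H2-Aa.

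In the list of homeostatic genes, 2 of 41 members were higher and 21 lower, with a median log2FC of -0.47. The summed level was 99094 ± 6383 CPM in WT and 67622 ± 5113 CPM in APP/PS1 (SD, n = 6 each), with no overlap between groups. P2ry12, the ADP receptor by which processes move to injury, had 4383 to 6845 CPM (median 5202) in WT and 2456 to 3243 CPM (median 2650) in APP/PS1 (log2FC -0.98 ± 0.11, adjusted p = 8.7e-07). Tmem119, a membrane protein typical of microglia, had 4320 to 4898 CPM (median 4603) in WT and 1847 to 2773 CPM (median 2010) in APP/PS1 (log2FC -1.08 ± 0.10, adjusted p = 7.02e-08). Ecscr, a membrane protein of microglia and endothelium, had 94.8 to 121 CPM (median 110.3) in WT and 36.6 to 55.4 CPM (median 38.2) in APP/PS1 (log2FC -1.32 ± 0.14, adjusted p = 3.06e-07), and endothelial marker sums were lower in the same samples. Klhl6, an adaptor of a ubiquitin ligase, went the other way, with 87.9 to 115 CPM (median 97.1) in WT and 172 to 209 CPM (median 195) in APP/PS1 (log2FC 0.95 ± 0.09, adjusted p = 6.58e-08). Cx3cr1, whose locus holds the Cre driver in both groups, had 2502 to 3278 CPM (median 2685) in WT and 1717 to 2263 CPM (median 1936) in APP/PS1 (log2FC -0.51 ± 0.12, adjusted p = 0.00718).

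Of purine signalling genes 2 of 24 members were higher and 7 lower (3 and 11 with the 12 samples alone), with a median log2FC of -0.55. P2ry13, a further ADP receptor (means of 1496 CPM in WT and 854 CPM in APP/PS1, log2FC -0.81 ± 0.12, adjusted p = 3.37e-05), and Pnp, which splits purine nucleosides (means of 143 CPM in WT and 74.4 CPM in APP/PS1, log2FC -0.95 ± 0.12, adjusted p = 3.56e-06), were lower. Adora1, the adenosine A1 receptor, was higher, with 1.32 to 2.6 CPM (median 2.17) in WT and 10.5 to 26.5 CPM (median 13.05) in APP/PS1 (log2FC 2.97 ± 0.26, adjusted p = 2.22e-08). Among TGF-beta signalling genes 1 of 34 members were higher and 7 lower, with a median log2FC of -0.16 (-0.23 without WT 0014, -0.24 to -0.19 with other scalings), and without WT 0012 and 0015 the calls were 1 higher and 3 lower. The 2 receptor chains went in opposite directions. Tgfbr1 had 4401 to 5216 CPM (median 4801) in WT and 2755 to 3518 CPM (median 2988) in APP/PS1 (log2FC -0.68 ± 0.08, adjusted p = 4.2e-06). Tgfbr2 had 335 to 455 CPM (median 429.6) in WT and 616 to 947 CPM (median 709) in APP/PS1 (log2FC 0.88 ± 0.17, adjusted p = 0.000777). Pmepa1, a target and inhibitor of the pathway, was lower (means of 299.9 CPM in WT and 215 CPM in APP/PS1, log2FC -0.48 ± 0.11, adjusted p = 0.00533). Among transcription factors of microglia and macrophages, 5 of 52 members were higher and 3 lower (3 and 2 without WT 0012 and 0015, 1 lower without APP/PS1 0007, 0011, 0013, 0017, WT 0009 or 0015, 7 and 7 with the 12 samples alone). Maf, a factor of tissue macrophages, had 332 to 491 CPM (median 388) in WT and 176 to 221 CPM (median 200.0) in APP/PS1 (log2FC -1.04 ± 0.14, adjusted p = 1.96e-05). Bhlhe40, a basic helix-loop-helix repressor, had 2.24 to 17.6 CPM (median 6.58) in WT and 25.4 to 57.6 CPM (median 36.96) in APP/PS1 (log2FC 2.36 ± 0.34, adjusted p = 3.4e-05). Each of these pairs of ranges was separate.

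Lysosomal genes lay mainly on the higher side. In the list of hydrolases 18 of 44 members were higher and 2 lower (23 and 5 with the 12 samples alone), with a median log2FC of 0.30. In that of cathepsins and cystatins 9 of 19 members were higher and 4 lower, with a median log2FC of 0.14 (0.57 without WT 0012 and 0015, 0.50 without WT 0015, 0.06 to 0.11 with other scalings). Among lysosomal membrane proteins 11 of 32 members were higher and 3 lower (7 and 3 without WT 0012 and 0015, 1 lower without APP/PS1 0011, 0016, WT 0006, 0008 or 0009, 4 to 6 lower with other scalings, 13 and 7 with the 12 samples alone), with a median log2FC of 0.13 (0.05 to 0.09 with other scalings), and among genes of the vacuolar ATPase 7 of 20 members were higher and 1 lower (12 and 1 with the 12 samples alone), with a median log2FC of 0.46. Of the hydrolases 40.9% were higher, against 5.99% of all genes. Their summed level, however, overlapped, at 31378 to 36178 CPM in WT and 31243 to 35455 CPM in APP/PS1. Gla, alpha-galactosidase A, had 6.51 to 11.52 CPM (median 7.18) in WT and 28.2 to 48.6 CPM (median 44.8) in APP/PS1 (log2FC 2.37 ± 0.17, adjusted p = 1.79e-09). Gusb, beta-glucuronidase, had 251 to 346 CPM (median 268) in WT and 651 to 970.1 CPM (median 701) in APP/PS1 (log2FC 1.46 ± 0.11, adjusted p = 4.1e-09). Scpep1, a serine carboxypeptidase, had 87.3 to 124 CPM (median 111) in WT and 191 to 259 CPM (median 251) in APP/PS1 (log2FC 1.17 ± 0.11, adjusted p = 5.1e-08). In none of these 3 did the groups overlap. Ctsz, a carboxypeptidase of the cathepsin family, had 760.4 to 1100 CPM (median 824) in WT and 1926 to 2525 CPM (median 2195) in APP/PS1 (log2FC 1.33 ± 0.10, adjusted p = 4.14e-09). Sgsh, heparan sulfamidase, went the other way (means of 27.2 CPM in WT and 11.1 CPM in APP/PS1, log2FC -1.29 ± 0.24, adjusted p = 0.000556), as did the abundant protease Lgmn (means of 5017 CPM in WT and 3917 CPM in APP/PS1, log2FC -0.36 ± 0.09, adjusted p = 0.00858). Of the ATPase subunits, Atp6v1a, the catalytic subunit, had 108 to 135 CPM (median 123.2) in WT and 184 to 260.3 CPM (median 234) in APP/PS1 (log2FC 0.90 ± 0.10, adjusted p = 1.35e-06). Atp6v1c1, of the stalk, had means of 158 CPM in WT and 253 CPM in APP/PS1 (log2FC 0.68 ± 0.12, adjusted p = 0.000264). Atp6v0d2, the macrophage and osteoclast form of the d subunit, had 0 to 1.65 CPM (median 0.194) in WT and 2.21 to 39.3 CPM (median 14.8) in APP/PS1 (log2FC 5.38 ± 0.92, adjusted p = 0.000281). The transporter Slc15a3, which carries histidine and small peptides out of lysosomes, had means of 155 CPM in WT and 349 CPM in APP/PS1 (log2FC 1.17 ± 0.12, adjusted p = 2.08e-07).

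The summed level of cathepsins and cystatins was 40322 ± 3165 CPM in WT and 35586 ± 2872 CPM in APP/PS1 (SD, n = 6 each). The groups overlapped, and the mean sum was lower in APP/PS1 although more members were called higher than lower. Cst3, a member of this list, had means of 19188 CPM in WT and 9362 CPM in APP/PS1. This loss was larger than the fall of the mean sum, so the mean sum of the other members was higher in APP/PS1.

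All members of these 4 lists, called or not, were looked at for shared letters in their promoters, taken from RefSeq (GRCm38.p6, 250 bases before to 50 after a gene's start). The letters CACGTG, the core to which the lysosomal regulator TFEB and many other basic helix-loop-helix factors bind, stood in 25 of the 108 windows of the 90 matched genes (23.1%), counting either strand and ignoring other motifs. Among the 45 members called higher, 13 of 39 windows (33.3%) held them. They stood in 7.15% of all 32851 windows, in 9.35% of those of the genes tested and in 11.7% of those of all higher genes. The share was 16.7% (3 of 18 windows) for cholesterol synthesis genes, 5.13% for homeostatic genes and 1.56% for interferon-stimulated genes. Shown here are the 250 bases before the start of the 4 called lysosomal members with the smallest adjusted p that have a single window with the letters upstream, in lower case with CACGTG in capitals, 5′ to 3′ on the strand of the gene. They are Gla (chrX:134601006-134601255, minus strand), Atp6v1a (chr16:44139260-44139509, minus strand), Naglu (chr11:101069844-101070093, plus strand) and Glb1 (chr9:114400828-114401077, plus strand).
Gla: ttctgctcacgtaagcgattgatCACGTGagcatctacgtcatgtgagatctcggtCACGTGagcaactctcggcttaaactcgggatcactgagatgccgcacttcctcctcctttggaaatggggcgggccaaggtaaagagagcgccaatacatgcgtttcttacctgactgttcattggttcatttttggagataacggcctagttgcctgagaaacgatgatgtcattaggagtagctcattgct
Atp6v1a: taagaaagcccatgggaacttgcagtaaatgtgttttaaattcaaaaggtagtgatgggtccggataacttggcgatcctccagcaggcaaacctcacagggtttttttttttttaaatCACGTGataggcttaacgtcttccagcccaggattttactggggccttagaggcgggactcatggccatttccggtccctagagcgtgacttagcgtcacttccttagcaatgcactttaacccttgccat
Naglu: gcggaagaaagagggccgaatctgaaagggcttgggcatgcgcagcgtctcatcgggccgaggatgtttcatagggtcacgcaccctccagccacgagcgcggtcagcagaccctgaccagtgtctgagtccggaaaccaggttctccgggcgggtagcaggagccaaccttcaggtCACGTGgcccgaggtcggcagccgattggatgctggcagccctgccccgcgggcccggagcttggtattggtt
Glb1: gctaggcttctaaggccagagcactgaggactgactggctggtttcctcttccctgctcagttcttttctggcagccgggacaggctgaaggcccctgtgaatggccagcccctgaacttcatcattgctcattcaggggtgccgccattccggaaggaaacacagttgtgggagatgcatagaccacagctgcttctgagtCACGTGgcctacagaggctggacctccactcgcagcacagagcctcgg
Gla holds the letters at 2 places in this stretch and the others at 1. A match describes the letters alone, so nothing follows from it on the binding of a factor. Tfeb itself had 36.3 to 49.5 CPM (median 44.9) in WT and 31.3 to 42.4 CPM (median 34.1) in APP/PS1 (log2FC -0.34 ± 0.11, adjusted p = 0.0417; 0.154 without WT 0012 and 0015). That call held in 3 of 12 repeats with a single sample removed.

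Of autophagy genes 8 of 45 members were higher and 1 lower (3 and 0 without WT 0012 and 0015, 4 to 6 higher with other scalings, 10 and 3 with the 12 samples alone), with a median log2FC of 0.02. Its median turned below 0 under other scalings and without WT 0012 and 0015. Sqstm1, the cargo receptor p62, had 243 to 307 CPM (median 259) in WT and 316 to 382 CPM (median 348) in APP/PS1 (log2FC 0.36 ± 0.09, adjusted p = 0.00738). Among endosome and vesicle trafficking genes 7 of 46 members were higher and 2 lower (2 to 4 lower with other scalings, 13 and 3 with the 12 samples alone). Rab7b, a GTPase between endosomes and the Golgi, had 1.78 to 8.32 CPM (median 3.62) in WT and 32.3 to 75.2 CPM (median 52.7) in APP/PS1 (log2FC 3.58 ± 0.33, adjusted p = 5.41e-08), without overlap. Rab7, of late endosomes, was higher by a smaller amount (means of 307 CPM in WT and 390.0 CPM in APP/PS1, log2FC 0.35 ± 0.07, adjusted p = 0.00154), and Bin1, a membrane-bending adaptor and Alzheimer's disease risk gene, was lower (means of 452 CPM in WT and 347 CPM in APP/PS1, log2FC -0.38 ± 0.10, adjusted p = 0.0137).

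Lipid genes split by function. In cholesterol synthesis 9 of 20 members were higher and 0 lower, with a median log2FC of 0.56, and 9 were also higher without WT 0012 and 0015. Sc5d, of the last steps, had 14.2 to 21.7 CPM (median 17.8) in WT and 32.6 to 44.7 CPM (median 37.5) in APP/PS1 (log2FC 1.10 ± 0.17, adjusted p = 6.69e-05). Dhcr7, the final reductase, had 25.8 to 39.1 CPM (median 32.9) in WT and 46.2 to 64.5 CPM (median 58.5) in APP/PS1 (log2FC 0.82 ± 0.12, adjusted p = 4.52e-05). Cyp51, which demethylates lanosterol, had 10.3 to 16.9 CPM (median 13.1) in WT and 21.6 to 33.6 CPM (median 27.9) in APP/PS1 (log2FC 1.09 ± 0.17, adjusted p = 0.000102). The groups were separate for each of the 3. The letters TCACNCCAC, a form of the sterol element that SREBP factors bind, stood in 1 of the 18 windows of this list (5.56%) and in 1.24% of all windows. They stood in 2 of 16 windows (12.5%) of cathepsins and cystatins and in 1 of 32 (3.13%) of lysosomal membrane proteins. The window was that of Hmgcs1, called higher, and it is shown for its match in capitals (chr13:119690101-119690350, plus strand of GRCm38.p6).
Hmgcs1: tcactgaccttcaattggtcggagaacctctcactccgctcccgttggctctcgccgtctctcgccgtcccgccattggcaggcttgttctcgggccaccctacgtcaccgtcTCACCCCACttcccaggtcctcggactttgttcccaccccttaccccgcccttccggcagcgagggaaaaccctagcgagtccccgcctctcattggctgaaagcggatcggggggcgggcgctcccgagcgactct

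In sterol uptake, sensing and trafficking 12 of 28 members were higher and 0 lower, with a median log2FC of 0.29 (0.16 without APP/PS1 0005). Nceh1 (GRCm39 chromosome 3, 27236975 to 27338764), which hydrolyses cholesterol esters, had 25.1 to 43.4 CPM (median 29.8) in WT and 174 to 255 CPM (median 187) in APP/PS1 (log2FC 2.62 ± 0.15, adjusted p = 7.63e-11). This was the smallest adjusted p of all genes tested. Soat1, which makes the same esters, was higher too, with 62.8 to 109 CPM (median 93.3) in WT and 179 to 239 CPM (median 219) in APP/PS1 (log2FC 1.21 ± 0.12, adjusted p = 1.93e-07), and so was Lipa, the acid lipase of lysosomes (means of 207 CPM in WT and 342 CPM in APP/PS1, log2FC 0.72 ± 0.09, adjusted p = 3.33e-06). Genes of synthesis, esterification and hydrolysis thus rose in the same samples. In fatty acid synthesis and desaturation 8 of 25 members were higher and 1 lower (3 lower with other scalings, 8 and 4 with the 12 samples alone), led by Acaca, acetyl-CoA carboxylase, with 2.94 to 7.43 CPM (median 4.84) in WT and 23.6 to 62.5 CPM (median 43.5) in APP/PS1 (log2FC 3.03 ± 0.40, adjusted p = 9.68e-06). Hacd2, of chain elongation, had means of 44.8 CPM in WT and 119 CPM in APP/PS1 (log2FC 1.41 ± 0.15, adjusted p = 8e-07). In lipid droplet and uptake genes 13 of 41 members were higher and 2 lower (13 and 4 with the 12 samples alone), with a median log2FC of 0.17 (0.07 to 0.13 with other scalings). Fabp3, a carrier of fatty acids, had 0.084 to 1.65 CPM (median 0.836) in WT and 25.1 to 52.5 CPM (median 42.8) in APP/PS1 (log2FC 5.55 ± 0.58, adjusted p = 3.26e-07). Cd36, a receptor for fatty acids and oxidised lipoprotein, went against the list, with 22.6 to 33.2 CPM (median 29.1) in WT and 6.8 to 13.5 CPM (median 10.2) in APP/PS1 (log2FC -1.54 ± 0.22, adjusted p = 2.44e-05).

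Of fatty acid oxidation genes 1 of 34 members were higher and 2 lower (4 and 3 with the 12 samples alone), with a median log2FC of 0.01. Echs1, enoyl-CoA hydratase, was higher (means of 85.6 CPM in WT and 161 CPM in APP/PS1, log2FC 0.91 ± 0.12, adjusted p = 8.7e-06). Acads, the short-chain dehydrogenase, was lower (means of 158 CPM in WT and 118 CPM in APP/PS1, log2FC -0.43 ± 0.11, adjusted p = 0.0103). Among LXR targets 6 of 23 members were higher and 2 lower (7 and 5 with the 12 samples alone). Apoe, the main lipid carrier of the brain, had 471 to 665 CPM (median 592) in WT and 608 to 2914 CPM (median 1210) in APP/PS1 (log2FC 1.31 ± 0.28, adjusted p = 0.00248), with overlap. Pltp, which transfers phospholipid, had 55.5 to 110.5 CPM (median 74.1) in WT and 19.1 to 36.5 CPM (median 27.6) in APP/PS1 (log2FC -1.47 ± 0.22, adjusted p = 4.91e-05). Of sphingolipid genes 11 of 48 members were higher and 4 lower (9 and 1 without WT 0012 and 0015, 14 and 8 with the 12 samples alone), and the leading ones, Gla, Galc (means of 55.02 CPM in WT and 123.3 CPM in APP/PS1, log2FC 1.16 ± 0.12, adjusted p = 1.83e-07) and Glb1 (means of 56.7 CPM in WT and 97.97 CPM in APP/PS1, log2FC 0.79 ± 0.12, adjusted p = 6.7e-05), are degrading enzymes of lysosomes. Of eicosanoid genes 4 of 32 members were higher and 8 lower, with a median log2FC of -0.22. Ptger3, a prostaglandin E2 receptor, had 9.16 to 20.1 CPM (median 14.6) in WT and 1.07 to 6.14 CPM (median 2.12) in APP/PS1 (log2FC -2.48 ± 0.36, adjusted p = 3.47e-05). Ptger4, a further receptor of the same ligand, had 5.68 to 29.5 CPM (median 6.56) in WT and 24.2 to 64.9 CPM (median 47.1) in APP/PS1 (log2FC 2.07 ± 0.36, adjusted p = 0.000366). Both receptors changed, and they did so in opposite directions, with overlap for Ptger4.

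Of the glycolysis and lactate genes 14 of 30 members were higher and 4 lower, with a median log2FC of 0.36 (the file lists Aldoa under 2 identifiers). The share called higher was 46.7%, beside 5.99% of all genes. Their summed level was 5595 ± 348 CPM in WT and 8753 ± 597 CPM in APP/PS1 (SD, n = 6 each), without overlap. Tpi1, triose phosphate isomerase, had 90.6 to 156 CPM (median 111) in WT and 272 to 386 CPM (median 362) in APP/PS1 (log2FC 1.57 ± 0.14, adjusted p = 5.43e-08). Pkm, pyruvate kinase, had 357 to 539 CPM (median 415) in WT and 883 to 1262 CPM (median 1095) in APP/PS1 (log2FC 1.31 ± 0.12, adjusted p = 3.09e-08). Gpi1, glucose phosphate isomerase, had 184 to 228 CPM (median 199) in WT and 399.9 to 539 CPM (median 444) in APP/PS1 (log2FC 1.16 ± 0.10, adjusted p = 2.81e-08). None of the 3 overlapped. Eno3, the muscle form of enolase, went the other way (means of 30.2 CPM in WT and 10.6 CPM in APP/PS1, log2FC -1.51 ± 0.20, adjusted p = 9.18e-06). In the pentose phosphate pathway 3 of 10 members were higher and 0 lower (5 and 0 with the 12 samples alone), with Pgd, which yields NADPH, having means of 164 CPM in WT and 234 CPM in APP/PS1 (log2FC 0.52 ± 0.09, adjusted p = 0.000214). In the hypoxia list 8 of 28 members were higher and 1 lower, with a median log2FC of 0.18 (0.09 to 0.14 with other scalings), and Egln3, a prolyl hydroxylase of HIF proteins, had 1.12 to 5.65 CPM (median 3.56) in WT and 54.04 to 99.5 CPM (median 69.4) in APP/PS1 (log2FC 4.38 ± 0.33, adjusted p = 4.1e-09). Epas1, the HIF-2 alpha factor, was lower (means of 20.6 CPM in WT and 8.46 CPM in APP/PS1, log2FC -1.28 ± 0.31, adjusted p = 0.00742; 0.0621 without WT 0012 and 0015), in samples where endothelial markers were lower as well.

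Mitochondrial genes were read in the same way, beside the 5.99% and 4.48% of all genes. Of pyruvate and TCA cycle genes 4 of 37 members were higher and 1 lower (2 higher without APP/PS1 0013, WT 0009 or 0014, 1 to 2 higher with other scalings, 7 and 2 with the 12 samples alone), with a median log2FC of 0.09, and Idh2, the mitochondrial NADP isocitrate dehydrogenase, was lower, with 120.2 to 140.4 CPM (median 126) in WT and 64.5 to 80.1 CPM (median 69.7) in APP/PS1 (log2FC -0.87 ± 0.10, adjusted p = 2.21e-06). Of complex I genes 1 of 39 members were higher and 0 lower (15 and 0 with the 12 samples alone), with a median log2FC of 0.31. Of complexes II and III 0 of 18 members were higher and 0 lower (9 and 0 with the 12 samples alone), with a median log2FC of 0.26. Of complex IV 2 of 17 members were higher and 1 lower (10 and 0 with the 12 samples alone), with a median log2FC of 0.51, and of ATP synthase 1 of 20 members were higher and 0 lower (14 and 0 with the 12 samples alone), with a median log2FC of 0.37. The medians of the 4 respiratory chain and ATP synthase lists were above that of all genes (-0.02), and their summed levels overlapped between groups. In each of these 4 sums APP/PS1 0005 stood within the WT range while the other five stood above it. For complex I the sums were 2189 to 2717 CPM in WT and 2309 to 3393 CPM in APP/PS1, with 2309 CPM in APP/PS1 0005 and 2870 CPM or more in the other five. For complex IV, APP/PS1 0005 had 2237 CPM and the other five 2664 CPM or more. Cox6a2, the muscle form of a complex IV subunit, was higher, with 1.74 to 5.83 CPM (median 2.78) in WT and 26.7 to 62.7 CPM (median 34.6) in APP/PS1 (log2FC 3.57 ± 0.38, adjusted p = 4.98e-07). Of the genes of the mitochondrial genome 0 of 19 members were higher and 1 lower (2 to 4 lower with other scalings, 0 and 3 with the 12 samples alone), with a median log2FC of -0.34 (-0.12 without WT 0015). Their median was -0.05 without WT 0012 and 0015.

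Of cytosolic ribosomal protein genes 10 of 89 members were higher and 0 lower (5 to 9 higher with other scalings, 57 and 0 with the 12 samples alone), with a median log2FC of 0.41. Without WT 0012 and 0015 the calls were 3 higher and 0 lower. Their summed level was 97097 to 118689 CPM in WT and 95772 to 163776 CPM in APP/PS1, and APP/PS1 0005, at 95772 CPM, stood below all WT samples while the other five stood above them. Rpsa, a protein of the small subunit and laminin receptor, had 1130 to 1573 CPM (median 1291) in WT and 1753 to 2457 CPM (median 2156) in APP/PS1 (log2FC 0.70 ± 0.16, adjusted p = 0.00449). Reads of such genes are shared with many processed pseudogenes, so their values are less certain. Of initiation and elongation factors 14 of 65 members were higher and 1 lower (7 and 1 without WT 0012 and 0015, 8 to 11 higher with other scalings, 29 and 1 with the 12 samples alone), with a median log2FC of 0.25 (0.16 to 0.21 with other scalings). Eif2s3x, a subunit of the factor that carries the initiator tRNA, had 95.2 to 129 CPM (median 108) in WT and 142 to 178 CPM (median 166) in APP/PS1 (log2FC 0.59 ± 0.09, adjusted p = 7.42e-05). Eef2k, the kinase that holds back elongation by phosphorylating Eef2, had 156 to 198 CPM (median 174) in WT and 70.1 to 102 CPM (median 87.6) in APP/PS1 (log2FC -1.004 ± 0.18, adjusted p = 0.000548). Of tRNA synthetases 4 of 20 members were higher and 0 lower, with a median log2FC of 0.17 (0.09 to 0.14 with other scalings) (20 of the 38 listed symbols were in the file), led by Sars1 (means of 97.2 CPM in WT and 150.2 CPM in APP/PS1, log2FC 0.63 ± 0.09, adjusted p = 3.82e-05).

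Of chaperonin and prefoldin genes 5 of 15 members were higher and 0 lower (3 and 0 without WT 0012 and 0015, 3 to 5 higher with other scalings), with a median log2FC of 0.19 (0.10 to 0.15 with other scalings), with Cct2, a subunit of the TRiC ring, having means of 245 CPM in WT and 351 CPM in APP/PS1 (log2FC 0.52 ± 0.10, adjusted p = 0.00106). Of heat shock genes 3 of 26 members were higher and 0 lower (3 lower without WT 0009, 6 and 1 with the 12 samples alone), and Hspa8, the constitutive Hsp70 that works in protein uptake by lysosomes, had 642 to 919 CPM (median 775) in WT and 1178 to 1554 CPM (median 1472) in APP/PS1 (log2FC 0.85 ± 0.11, adjusted p = 8.99e-06). Of genes of the unfolded protein and integrated stress response 6 of 39 members were higher and 3 lower (10 and 3 with the 12 samples alone), with a median log2FC of 0.13 (0.05 to 0.09 with other scalings). Psat1, of serine synthesis, had 43.9 to 121 CPM (median 80.9) in WT and 348 to 639.8 CPM (median 447) in APP/PS1 (log2FC 2.63 ± 0.22, adjusted p = 1.71e-08). Phgdh, the first enzyme of the same pathway, had 145 to 197 CPM (median 168) in WT and 88.1 to 134 CPM (median 105) in APP/PS1 (log2FC -0.67 ± 0.11, adjusted p = 0.000122). Both ranges were separate, in opposite directions. Of proteasome subunits 2 of 47 members were higher and 0 lower (13 and 0 with the 12 samples alone), with a median log2FC of 0.15 (0.07 to 0.12 with other scalings). Of amino acid and arginine genes 10 of 35 members were higher and 4 lower, with a median log2FC of 0.20 (0.13 without WT 0012 and 0015, 0.07 without WT 0015, 0.11 to 0.16 with other scalings). Got1, aspartate aminotransferase, had 31.3 to 60.5 CPM (median 44.8) in WT and 144 to 170.2 CPM (median 156) in APP/PS1 (log2FC 1.78 ± 0.14, adjusted p = 4.1e-09). Kynu, kynureninase, had means of 2.11 CPM in WT and 11.97 CPM in APP/PS1 (log2FC 2.50 ± 0.39, adjusted p = 7.99e-05). Glul, glutamine synthetase, was lower, with 1384 to 1747 CPM (median 1720) in WT and 997 to 1276 CPM (median 1054) in APP/PS1 (log2FC -0.62 ± 0.09, adjusted p = 4.93e-05).

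Of superoxide, peroxide and Nrf2 genes 10 of 33 members were higher and 1 lower (5 and 1 without WT 0012 and 0015, 6 to 9 higher with other scalings, 15 and 3 with the 12 samples alone), with a median log2FC of 0.26. Cybb, the catalytic chain of the phagocyte NADPH oxidase, had 19.6 to 56.1 CPM (median 41.1) in WT and 79.9 to 196 CPM (median 116) in APP/PS1 (log2FC 1.71 ± 0.33, adjusted p = 0.000883). Hmox1, heme oxygenase, had 42.5 to 59.99 CPM (median 51.3) in WT and 70.1 to 84.1 CPM (median 80.2) in APP/PS1 (log2FC 0.63 ± 0.09, adjusted p = 4.09e-05). Of glutathione and ferroptosis genes 4 of 31 members were higher and 6 lower (4 and 3 without WT 0012 and 0015, 7 and 6 with the 12 samples alone), with a median log2FC of 0.00; Gclc, the first enzyme of glutathione synthesis, was lower (means of 64.1 CPM in WT and 42.6 CPM in APP/PS1, log2FC -0.59 ± 0.14, adjusted p = 0.00848). Of iron and metal genes 7 of 37 members were higher and 5 lower (3 lower without APP/PS1 0013, 0016, 0017 or WT 0015), with a median log2FC of -0.10. Slc11a1, the phagosomal relative of DMT1, had 299 to 400.1 CPM (median 354) in WT and 606 to 804 CPM (median 759) in APP/PS1 (log2FC 1.05 ± 0.10, adjusted p = 6.58e-08). Ftl1, ferritin light chain, had 832 to 1340 CPM (median 933) in WT and 1866 to 2052 CPM (median 1946) in APP/PS1 (log2FC 1.01 ± 0.10, adjusted p = 1.48e-07). Both were above every WT sample in every APP/PS1 sample. Slc39a12, a zinc importer, was among the 10 lowest fold changes of genes with a mean of at least 5 CPM and no overlap, with 27.2 to 44.9 CPM (median 35.01) in WT and 4.75 to 11.3 CPM (median 7.81) in APP/PS1 (log2FC -2.17 ± 0.21, adjusted p = 1.41e-07).

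The 2 classes of antigen presentation differed. In the class I list 9 of 26 members were higher and 0 lower (5 and 0 without WT 0012 and 0015, 16 and 0 with the 12 samples alone), with a median log2FC of 0.38. H2-K1, a classical class I chain, had 375 to 674 CPM (median 549) in WT and 782 to 1174 CPM (median 1032) in APP/PS1 (log2FC 0.88 ± 0.15, adjusted p = 0.000241). H2-T23, a non-classical chain, had means of 286 CPM in WT and 452 CPM in APP/PS1 (log2FC 0.66 ± 0.14, adjusted p = 0.00218), and Psme1, of the proteasome activator, had means of 127 CPM in WT and 176 CPM in APP/PS1 (log2FC 0.47 ± 0.09, adjusted p = 0.0013). Reads of such near-identical chains can be shared, so single chains are less certain. In the class II list 1 of 16 members were higher and 6 lower, with a median log2FC of -0.42. Without WT 0012 and 0015 the calls were 1 higher and 1 lower. H2-Aa had 152 to 738 CPM (median 263) in WT and 33.2 to 164 CPM (median 60.2) in APP/PS1 (log2FC -2.22 ± 0.57, adjusted p = 0.0115; 0.0694 without WT 0012 and 0015), with overlap. H2-Eb1 had 67.5 to 527 CPM (median 176) in WT and 17.8 to 82.6 CPM (median 27.1) in APP/PS1 (log2FC -2.67 ± 0.60, adjusted p = 0.00398). Class II chains are carried by border-associated macrophages and dendritic cells, some of whose markers were lower in the same samples, and their part in this result was not tested. H2-Ob, which restrains class II loading, was higher, with overlap (means of 73.9 CPM in WT and 104 CPM in APP/PS1, log2FC 0.50 ± 0.11, adjusted p = 0.00499).

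Of interferon-stimulated genes 5 of 70 members were higher and 7 lower (3 to 4 higher with other scalings, 11 and 8 with the 12 samples alone), with a median log2FC of 0.20 (0.12 without WT 0008, 0.35 without WT 0009, 0.11 to 0.17 with other scalings). They were 1 higher and 4 lower without WT 0012 and 0015. Oas1a, an RNA sensor, had 7.89 to 18.3 CPM (median 13.2) in WT and 16.7 to 46.4 CPM (median 34.1) in APP/PS1 (log2FC 1.28 ± 0.28, adjusted p = 0.00325). Gbp3, a guanylate-binding protein, had 10.98 to 28.2 CPM (median 22.5) in WT and 6.84 to 12.7 CPM (median 7.83) in APP/PS1 (log2FC -1.29 ± 0.22, adjusted p = 0.000226). Both overlapped between groups. Of cytokine and inflammasome genes 6 of 37 members were higher and 2 lower (10 and 3 with the 12 samples alone), with a median log2FC of 0.16 (0.24 without WT 0014, 0.07 to 0.12 with other scalings). Osm, oncostatin M, had 28.7 to 58.8 CPM (median 48.7) in WT and 87.5 to 157 CPM (median 123.2) in APP/PS1 (log2FC 1.37 ± 0.18, adjusted p = 1.07e-05). Tnfsf8, the ligand of CD30, had 1.75 to 5.4 CPM (median 3.03) in WT and 11.1 to 26.8 CPM (median 19.8) in APP/PS1 (log2FC 2.53 ± 0.28, adjusted p = 8.7e-07). Casp8, a caspase of the apoptosis and inflammasome routes, was lower (means of 162 CPM in WT and 106 CPM in APP/PS1, log2FC -0.61 ± 0.09, adjusted p = 2.56e-05). Of NF-kB genes 3 of 38 members were higher and 2 lower (1 and 2 without WT 0012 and 0015), with a median log2FC of 0.10 (0.04 without WT 0012, 0.22 without WT 0014, 0.02 to 0.07 with other scalings), beside 5.99% and 4.48% of all genes. Of chemokine ligands 5 of 27 members were higher and 6 lower (3 higher without APP/PS1 0016, WT 0006, 0008 or 0009). Cxcl16, a chemokine that also serves as a scavenger receptor, was higher (means of 88.9 CPM in WT and 189.6 CPM in APP/PS1, log2FC 1.09 ± 0.19, adjusted p = 0.000268), with overlap. Pf4 (means of 45.7 CPM in WT and 13.1 CPM in APP/PS1, log2FC -1.80 ± 0.29, adjusted p = 0.000117) and Ccl24 (log2FC -1.49 ± 0.20, adjusted p = 1.15e-05), both also markers of border-associated macrophages, were lower. Of chemokine receptors 2 of 20 members were higher and 2 lower, with Cxcr4 at 11.4 to 22.4 CPM (median 14.8) in WT and 52.8 to 105 CPM (median 64.3) in APP/PS1 (log2FC 2.20 ± 0.32, adjusted p = 4.55e-05).

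Of toll-like receptors and adaptors 5 of 28 members were higher and 6 lower (3 and 3 without WT 0012 and 0015), with a median log2FC of 0.01. Cd14, the co-receptor for lipopolysaccharide, had 356 to 501 CPM (median 427) in WT and 614 to 866 CPM (median 799) in APP/PS1 (log2FC 0.87 ± 0.13, adjusted p = 4.3e-05). Tlr5, the flagellin receptor, had 17.9 to 28.3 CPM (median 20.7) in WT and 4.72 to 11.4 CPM (median 9.16) in APP/PS1 (log2FC -1.33 ± 0.28, adjusted p = 0.00212). Of complement genes 2 of 22 members were higher and 5 lower (5 to 8 lower with other scalings), with a median log2FC of -0.58 (-0.38 without WT 0012 and 0015). C3ar1, the receptor for C3a, had 283 to 381 CPM (median 315) in WT and 474 to 651 CPM (median 585) in APP/PS1 (log2FC 0.86 ± 0.11, adjusted p = 3.82e-06). Cfp, properdin, had 9.69 to 23.4 CPM (median 14.8) in WT and 2.78 to 6.46 CPM (median 3.82) in APP/PS1 (log2FC -1.92 ± 0.32, adjusted p = 0.000201). Without WT 0012 and 0015, 2 higher and 2 lower were called. Of Trem2 and Syk signalling genes 6 of 35 members were higher and 1 lower (8 and 7 with the 12 samples alone). Trem2 itself had 1315 to 1777 CPM (median 1395) in WT and 1751 to 2435 CPM (median 2014) in APP/PS1 (log2FC 0.52 ± 0.10, adjusted p = 0.00141). Ptpn6, the phosphatase SHP-1, had 165 to 185 CPM (median 173) in WT and 209 to 296 CPM (median 244) in APP/PS1 (log2FC 0.53 ± 0.09, adjusted p = 0.000245). Of Fc receptors 1 of 8 members were higher and 2 lower (3 and 2 with the 12 samples alone). Of scavenger and apoptotic cell receptors 5 of 32 members were higher and 7 lower. Scarb1, a receptor for high-density lipoprotein, had 22.1 to 28.3 CPM (median 25.6) in WT and 49.5 to 71.1 CPM (median 65.7) in APP/PS1 (log2FC 1.31 ± 0.14, adjusted p = 5.38e-07). Elmo1, of the engulfment machinery, had 216 to 291 CPM (median 252) in WT and 121 to 155 CPM (median 129) in APP/PS1 (log2FC -0.91 ± 0.19, adjusted p = 0.00173).

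Of inhibitory and paired immune receptors 13 of 38 members were higher and 9 lower, with a median log2FC of 0.05. These shares of 34.2% and 23.7% stood beside 5.99% and 4.48% of all genes. Cd200r4, an activating relative of the CD200 receptor, had 0.945 to 7.95 CPM (median 4.15) in WT and 34.8 to 81.4 CPM (median 67.6) in APP/PS1 (log2FC 3.93 ± 0.39, adjusted p = 1.93e-07). Ly9, of the SLAM family, had 9.77 to 20.1 CPM (median 13.9) in WT and 52.6 to 86.3 CPM (median 64.03) in APP/PS1 (log2FC 2.19 ± 0.20, adjusted p = 6.45e-08). Cd274, the checkpoint ligand PD-L1, had 11.7 to 23.1 CPM (median 13.7) in WT and 34.7 to 52.2 CPM (median 44.7) in APP/PS1 (log2FC 1.51 ± 0.16, adjusted p = 5.04e-07). Siglece, an inhibitory sialic acid receptor, had 67.1 to 100.7 CPM (median 88.5) in WT and 21.8 to 41.01 CPM (median 35.3) in APP/PS1 (log2FC -1.38 ± 0.15, adjusted p = 9.3e-07). The 3 higher genes and Siglece each separated the groups in full. In the Ms4a family 0 of 12 members were higher and 2 lower, with a median log2FC of -0.92. The called members were Ms4a6b (means of 110.5 CPM in WT and 50.8 CPM in APP/PS1, log2FC -1.121 ± 0.16, adjusted p = 3.08e-05) and Ms4a4a (log2FC -1.43 ± 0.30, adjusted p = 0.00237). Among Alzheimer's disease risk genes 7 of 48 members were higher and 8 lower (4 and 6 without WT 0012 and 0015, 4 to 6 higher with other scalings), which included Cd33, an inhibitory receptor, at 655 to 770.1 CPM (median 716) in WT and 406 to 599 CPM (median 485) in APP/PS1 (log2FC -0.56 ± 0.11, adjusted p = 0.00188). Of APP processing genes 4 of 21 members were higher and 1 lower (2 to 3 higher with other scalings, 5 and 3 with the 12 samples alone), with Aplp2, a homologue of App, at 75.01 to 108 CPM (median 94.2) in WT and 244 to 467 CPM (median 324) in APP/PS1 (log2FC 1.87 ± 0.18, adjusted p = 1.05e-07).

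Secreted growth factors and matrix proteins lay mainly on the higher side, and 18 of 53 members were higher and 3 lower (5 lower without WT 0012, 19 and 5 with the 12 samples alone), with a median log2FC of 0.20 (0.13 without WT 0012 and 0015, 0.13 without WT 0008, 0.13 to 0.17 with other scalings). Serpine2, an inhibitor of thrombin and urokinase, had 489.8 to 728 CPM (median 639.6) in WT and 1353 to 1995 CPM (median 1536) in APP/PS1 (log2FC 1.37 ± 0.12, adjusted p = 2.36e-08). Fgf13, an intracellular member of the FGF family, had 12.7 to 23.04 CPM (median 16.03) in WT and 35.2 to 79.4 CPM (median 60.4) in APP/PS1 (log2FC 1.84 ± 0.20, adjusted p = 6.85e-07). Of adhesion and integrin genes 5 of 30 members were higher and 6 lower (4 and 3 without WT 0012 and 0015). Cd63, a tetraspanin of late endosomes, had 379 to 731 CPM (median 443) in WT and 1600 to 2229 CPM (median 1898) in APP/PS1 (log2FC 1.97 ± 0.19, adjusted p = 1.58e-07). Vcam1 had means of 59.4 CPM in WT and 27.7 CPM in APP/PS1 (log2FC -1.10 ± 0.21, adjusted p = 0.000933). Of actin and migration genes 6 of 60 members were higher and 4 lower (7 and 2 without WT 0012 and 0015, 14 and 5 with the 12 samples alone), with a median log2FC of 0.01. Myo1e, a membrane-bound myosin of phagocytic cups, had 6.08 to 14.4 CPM (median 10.5) in WT and 72.8 to 196 CPM (median 118) in APP/PS1 (log2FC 3.63 ± 0.30, adjusted p = 1.36e-08). Vasp, which lengthens filaments, was lower (means of 229.9 CPM in WT and 168 CPM in APP/PS1, log2FC -0.45 ± 0.10, adjusted p = 0.00351). Of ion channels 5 of 30 members were higher and 4 lower (3 and 0 without WT 0012 and 0015, 3 to 5 higher with other scalings), with Kcnj2, an inward rectifier, at 9.54 to 13.7 CPM (median 12.8) in WT and 30.6 to 85.8 CPM (median 56.6) in APP/PS1 (log2FC 2.18 ± 0.22, adjusted p = 1.93e-07). Of G protein-coupled Gpr and adhesion receptors 7 of 68 members were higher and 9 lower (4 to 6 higher with other scalings), with a median log2FC of -0.25. Gpr65, a proton sensor, had 9.77 to 18.9 CPM (median 10.4) in WT and 42.1 to 69.5 CPM (median 58.4) in APP/PS1 (log2FC 2.15 ± 0.21, adjusted p = 1.41e-07). Adgrg1, an adhesion receptor of microglia, had 845 to 1149 CPM (median 1019) in WT and 445 to 609.7 CPM (median 519) in APP/PS1 (log2FC -0.93 ± 0.15, adjusted p = 0.000151). Of 252 solute carriers 33 were higher and 28 lower (22 and 17 without WT 0012 and 0015).

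Of cell cycle genes 5 of 63 members were higher and 1 lower (3 and 0 without WT 0012 and 0015, 3 to 4 higher with other scalings, 1 to 3 lower with other scalings, 10 and 2 with the 12 samples alone), with a median log2FC of 0.25 (0.44 without WT 0012 and 0015, 0.42 without WT 0015, 0.16 to 0.21 with other scalings). Ccna2, cyclin A2, had 3.23 to 6.06 CPM (median 4.63) in WT and 6.71 to 10.2 CPM (median 8.44) in APP/PS1 (log2FC 0.83 ± 0.22, adjusted p = 0.0147). Cdkn2a, whose products restrain the cycle, had 0.14 to 4.2 CPM (median 1.22) in WT and 4.14 to 11.7 CPM (median 6.74) in APP/PS1 (log2FC 2.20 ± 0.50, adjusted p = 0.00447), with overlap. Of apoptosis genes 6 of 40 members were higher and 4 lower, with a median log2FC of -0.05. The survival factor Bcl2 was higher (means of 5.58 CPM in WT and 15.4 CPM in APP/PS1, log2FC 1.46 ± 0.21, adjusted p = 3.63e-05). Bid, which links caspase-8 to mitochondria, was lower (means of 59.3 CPM in WT and 32.7 CPM in APP/PS1, log2FC -0.86 ± 0.12, adjusted p = 2.45e-05). Of canonical histone genes 0 of 42 members were higher and 0 lower (3 and 0 with the 12 samples alone), with a median log2FC of 0.41 (0.64 without WT 0012 and 0015) in poly(A) RNA. Of immediate early genes 0 of 41 members were higher and 2 lower, with a median log2FC of 0.00, and their sums overlapped (15080 to 34180 CPM in WT and 17497 to 32830 CPM in APP/PS1). Of Zfp zinc finger genes 2 of 337 members were higher and 11 lower (1 and 6 without WT 0012 and 0015, 15 to 17 lower with other scalings, 4 and 25 with the 12 samples alone), with a median log2FC of -0.25, or 0.593% and 3.26% called beside 5.99% and 4.48% of all genes.

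**Figure D4:**
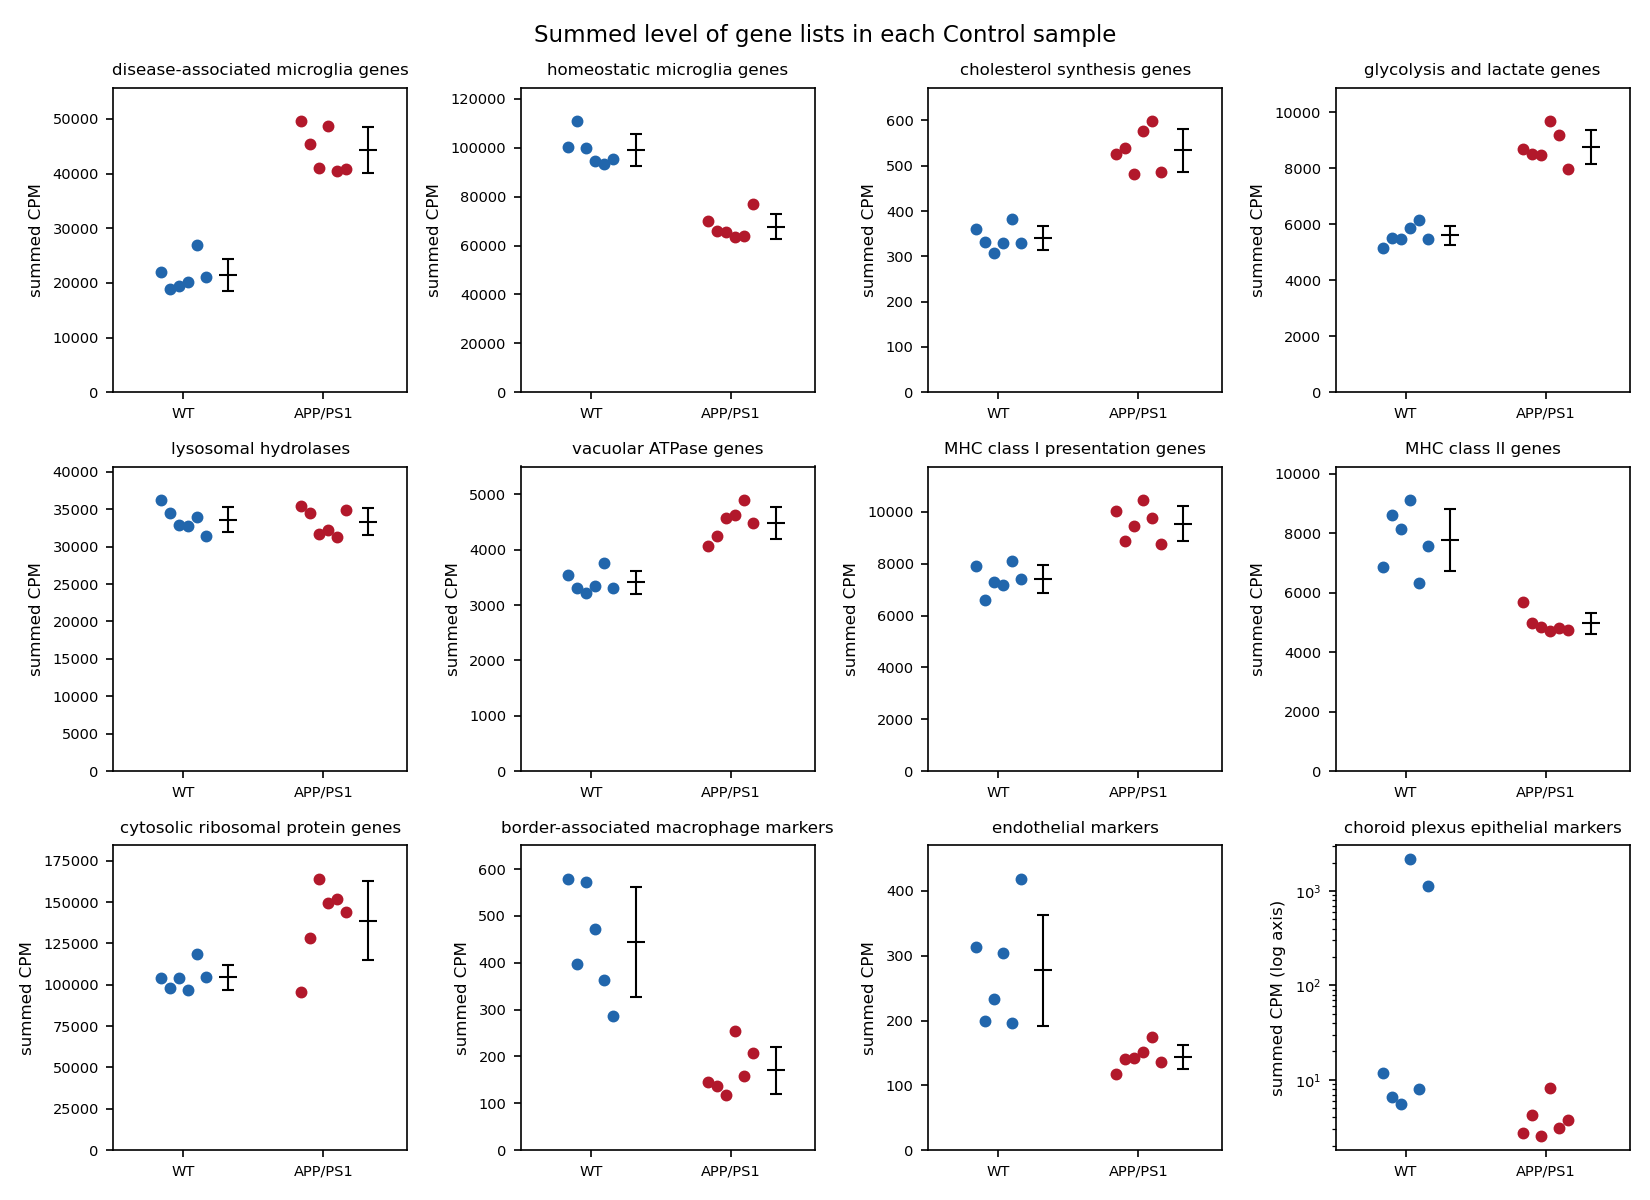
Summed level in CPM of 12 gene lists in each WT (blue) and APP/PS1 (red) sample, with mean ± SD (black, n = 6 each), except in the choroid plexus panel, which has a log axis and points only. The sums of DAM, cholesterol synthesis and glycolysis genes are higher in all APP/PS1 samples, those of lysosomal hydrolases overlap, and choroid plexus sums stand out in 2 WT samples.

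Among called genes with a mean of at least 5 CPM and no overlap, the 10 smallest fold changes were those of Mgl2, Ptger3, Gkn3, Slc39a12, Hlf, Angptl7, Pla2g2d, Sema4b, Tmem204 and Gpr165. Mgl2, a lectin of macrophages and dendritic cells, had 13.4 to 44.4 CPM (median 18.9) in WT and 2.4 to 6.24 CPM (median 2.99) in APP/PS1 (log2FC -2.71 ± 0.44, adjusted p = 0.000139). Hlf, a bZIP transcription factor, had 24.4 to 44.3 CPM (median 35.3) in WT and 3.45 to 13.1 CPM (median 9.21) in APP/PS1 (log2FC -1.98 ± 0.26, adjusted p = 9.73e-06). Tmem204, a claudin-like membrane protein, had 35.5 to 62.2 CPM (median 50.9) in WT and 9.51 to 15.9 CPM (median 13.2) in APP/PS1 (log2FC -1.93 ± 0.16, adjusted p = 8.61e-09). Each kept its call without WT 0012 and 0015. Gkn3, known from brain vessels, had 6.5 to 30.7 CPM (median 11.1) in WT and 0.725 to 4.71 CPM (median 2.73) in APP/PS1 (log2FC -2.31 ± 0.47, adjusted p = 0.00193).

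Markers of border-associated macrophages, endothelium, oligodendrocytes, neutrophils, neurons and choroid plexus lay mainly on the lower side. Of the microglia and myeloid markers themselves 0 of 12 members were higher and 3 lower (0 and 1 without WT 0012 and 0015, 3 and 4 with the 12 samples alone), with a median log2FC of -0.19, and their sums did not overlap. Of the border-associated macrophage markers 0 of 12 members were higher and 9 lower, with a median log2FC of -1.37, and without WT 0012 and 0015 again 0 higher and 9 lower. Of these, Clec10a, a lectin (means of 31.1 CPM in WT and 10.4 CPM in APP/PS1, log2FC -1.58 ± 0.26, adjusted p = 0.000205), is an example, and Mrc1, the mannose receptor, had 69.4 to 129 CPM (median 98.9) in WT and 19.3 to 57.9 CPM (median 31.8) in APP/PS1 (log2FC -1.57 ± 0.28, adjusted p = 0.00048). Of endothelial markers 1 of 10 members were higher and 5 lower (1 and 2 without WT 0012 and 0015). Of oligodendrocyte markers 1 of 11 members were higher and 4 lower (1 and 0 without WT 0012 and 0015). Of neutrophil markers 0 of 9 members were higher and 4 lower (1 lower without APP/PS1 0005, 0011, 0013 or WT 0014), and of neuron markers 0 of 11 members were higher and 3 lower (0 and 1 without WT 0012 and 0015). Of choroid plexus markers 0 of 20 members were higher and 17 lower (0 and 0 without WT 0012 and 0015, 0 and 10 with the 12 samples alone). Calls for choroid plexus, oligodendrocyte and endothelial markers thus changed in number without 0012 and 0015, while those for border-associated macrophages did not. The other direction was seen for 4 markers, of which Flt1 (log2FC 1.23 ± 0.29), a VEGF receptor listed as endothelial, was 1. Gfap, the filament of astrocytes, had 2.05 to 4.37 CPM (median 4.14) in WT and 26.03 to 89.7 CPM (median 49.9) in APP/PS1 (log2FC 3.90 ± 0.39, adjusted p = 2.08e-07). Cspg4, of oligodendrocyte precursors and pericytes, had 0.812 to 9.05 CPM (median 2.64) in WT and 4.47 to 48.4 CPM (median 21.7) in APP/PS1 (log2FC 2.81 ± 0.58, adjusted p = 0.00187), with overlap. Cd5, a lymphocyte receptor, had 0 to 0.701 CPM (median 0.526) in WT and 6.82 to 13.4 CPM (median 10.1) in APP/PS1 (log2FC 4.58 ± 0.50, adjusted p = 7.57e-07). No other member of the astrocyte list (10 genes) or the T and NK list (9 genes) was called higher, and 0 and 1 were lower. The astrocyte median was -0.08, and 0.39 without WT 0012 and 0015. The T and NK markers summed to 7.03 ± 4.89 CPM in WT and 12.7 ± 2.21 CPM in APP/PS1 (SD, n = 6 each), with overlap.

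Calls were spread unevenly over classes of genes. Of 14309 protein-coding genes 7.30% were higher and 5.71% lower, and of 2493 lncRNA genes 2.01% and 0.682%. Of 772 processed pseudogenes 1.94% were higher and 0.130% lower, with a median log2 fold change of 0.32, and these copies share sequence with genes such as those of ribosomal proteins. In the highest quartile of mean CPM (above 30.3 CPM) 12.5% were higher and 8.02% lower, and in the lowest quartile (up to 0.301 CPM) 1.39% and 0.299%. Among protein-coding genes with a mean of at least 1 CPM, the quartile with the shortest exon length (374 to 4266 bases) had 11.4% higher and 8.84% lower, and the longest quartile (9419 bases or more) 6.06% and 4.87%, beside 9.04% and 7.12% of all such genes. By chromosome, 4.61 to 7.53% were higher and 3.42 to 5.46% lower, beside 5.99% and 4.48% of all genes. Among gene models with no name beyond Gm and a number, 56 of 3152 were higher and 20 lower. These became 26 and 10 without WT 0012 and 0015, and 91 and 37 with the 12 samples alone. Gm15156 had 0.737 to 3.16 CPM (median 1.57) in WT and 33.97 to 52.6 CPM (median 37.3) in APP/PS1 (log2FC 4.56 ± 0.36, adjusted p = 7.89e-09), and 0610040J01Rik had 175 to 208 CPM (median 202) in WT and 104 to 119 CPM (median 113) in APP/PS1 (log2FC -0.82 ± 0.07, adjusted p = 4.27e-08).

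**Figure D5:**
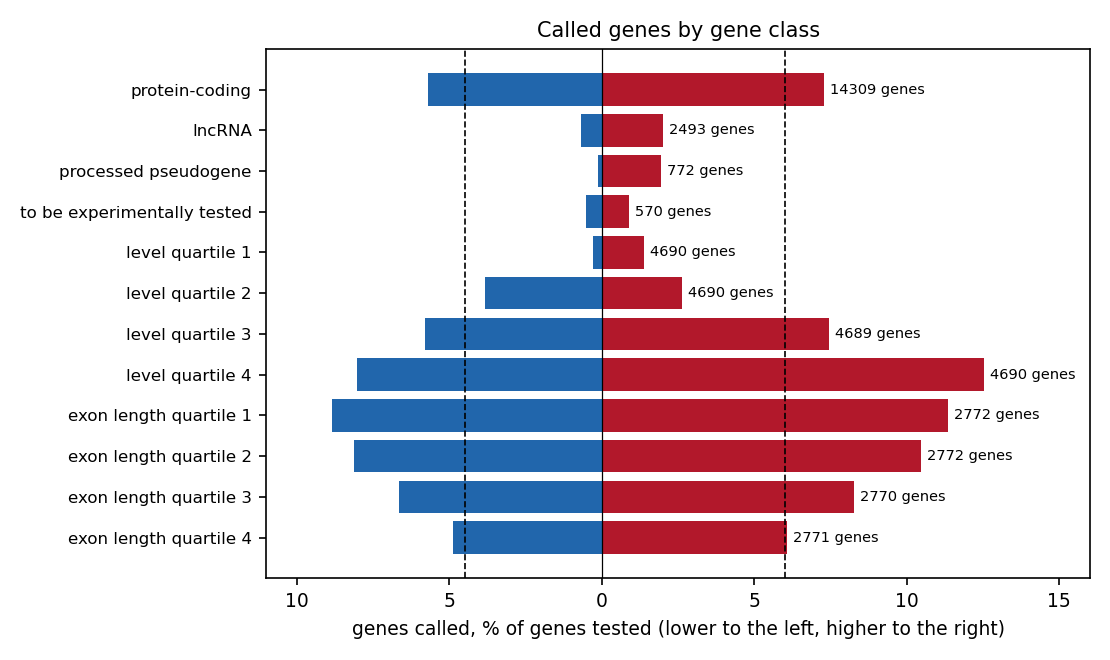
Share of genes called higher (red, right) or lower (blue, left) in APP/PS1 against WT by biotype, by quartile of mean CPM and, for protein-coding genes with a mean of at least 1 CPM, by quartile of exon length. Dashed lines mark 5.99% and 4.48%, and protein-coding genes, the third and the highest level quartile and all 4 exon quartiles exceed both.

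The same contrast was read in the 10 Slc11a2 knockdown mice, which are other animals and share no sample with the 12. Of the 1124 higher genes, 1088 (96.8%) were also above 0 there, where 46.3% of all genes were, 781 were called higher and 1 lower. Of the 841 lower genes, 808 (96.1%) were below 0, where 54.7% of the genes not called were, 446 were called lower and 0 higher. Of all 18759 genes, 1832 were called higher there and 1202 lower. A test of the difference between the 2 contrasts called 0 genes in edgeR's quasi-likelihood test (smallest adjusted p = 0.544), and 1703 genes had an unadjusted p below 0.05. That is more than the share of 0.05 that no difference at all would give, so 0 calls do not show that the contrasts were equal.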

How the data were processed

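The authors trimmed paired-end reads with Trim Galore (0.6.7), aligned them with STAR to mm39, counted reads per gene and deposited these counts per gene and sample, without normalization; which strand column was used is not given in the sources used here, so antisense and overlapping models are uncertain. The deposited table held 18876 genes, and 18759 with at least 5 counts in 3 samples were tested. Counts were fitted with edgeR (4.0.16, R 4.3.3; TMM scaling, quasi-likelihood test, Benjamini-Hochberg adjustment) in a model of the 4 genotype and knockdown groups over 22 samples, in which all groups share 1 estimate of the spread. The script was tested on simulated data. Lists were described by counts of calls at an adjusted p below 0.05, median log2 fold change and summed CPM, with no test of a list. Named genes were those with the largest and smallest fold changes and CPM changes and the leading called members of each list in each direction. Coordinates and biotypes come from a GRCm39 annotation. The members and lists were chosen with earlier results of these data known. Alternatives were DESeq2 (1.42.0), other scalings and filters, thinning to 31128643 counts, the 12 samples alone, and leaving out samples. Depth was 31128643 to 54872491 counts per sample, which limits the precision of genes with few counts. Some genes and 1 component of the transgene array are not reported here.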

Additional observations from a re-analysis of the deposited data

Results flagged for a closer look

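A sample was marked where its gap to the nearest of the other five, divided by the range of its group, was above Dixon's critical value for 6 samples on the log2 CPM scale, which chance gives in about 1 of 20 groups. This was met in 27 of the 458 groups checked, and no explanation was weighed. Control WT 0014 stood apart most often. It was the highest WT sample for Atp6v0d2 (ratio 0.646), Cst7 (0.756), Cxcl16 (0.744), Ftl1 (0.709), Gusb (0.656), Trem2 (0.631) and the sum of cytosolic ribosomal protein genes (0.635). It was the lowest WT sample for Casp8 (0.725), Gbp3 (0.663), Glul (0.805) and Kcnj2 (0.655). Among the other WT samples, 0012 was highest for Gpr31c (0.793), 0009 highest for Trpm1 (0.659) and lowest for Prnp (0.701), and 0008 lowest for the sum of hypoxia genes (0.713). Control WT 0015 was lowest for the sums of scavenger and apoptotic cell receptors (0.645) and of endosome and vesicle trafficking genes (0.680). In Control APP/PS1, 0005 was highest for the sum of MHC class II genes (0.697) and lowest for Cct2 (0.638). Sample 0007 was lowest for the sum of heat shock chaperone genes (0.659), 0011 was lowest for Dhcr7 (0.675) and Scpep1 (0.796), and 0013 was lowest for Cd14 (0.689) and highest for H2-T23 (0.673). Sample 0017 was highest for Glul (0.680) and lowest for Kynu (0.641), and 0016 was highest for Pgd (0.659).

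Control APP/PS1 0010, left out of the comparison, held summed levels above those of all 12 samples for B lymphocyte and plasma cell markers (999.9 CPM), monocyte markers (119 CPM) and cytosolic ribosomal protein genes (288139 CPM).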

How the results depend on the processing

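No gene called in the main test was called in the opposite direction under any of the fits run. With DESeq2, 1236 genes were higher and 1304 lower. With the 12 samples alone, which share no estimate of the spread with the knockdown groups, 1974 genes were higher and 1267 lower. Without Control WT 0012 and 0015, 497 genes were lower. At an absolute log2 fold change above 1, 526 were higher and 392 lower. Leaving out each sample in turn gave 911 to 1090 higher and 622 to 879 lower genes. The share of calls that were higher was 57.2%, and 46.1% with total counts only, 48.4% with upper-quartile scaling and 48.7% in DESeq2, so that the larger side turned in these fits. Of the 287 called genes that could be named, 51 lost the call without Control WT 0012 and 0015, 19 under another scaling and 41 when some single sample was left out. The sign of the median was kept in all fits for 65 of 91 lists. The causes of these differences were not tested. No paired analysis was possible because sample numbers are unique and shared by no 2 samples.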
